A study of Macaca mulatta with 4 samples.

Results

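The nuclei described here were chosen for transcripts of at least 2 of the genes NELL1, C8orf34, CHRM2, CNTNAP5 and ASIC2. In most of them, genes of granule neuron identity lay above the level of microglia, fibroblasts and endothelium. The nuclei came from the cerebellar hemispheres, with part of the vermis, of 4 rhesus macaque fetuses. They were profiled by single-nucleus RNA-seq with 1 library per fetus. The control female and the control male had no intervention and were taken at 130 days of gestation. The LPS female, at 131 days, and the LPS male, at 133 days, had been given 1 mg of lipopolysaccharide (LPS), a bacterial endotoxin, into the amniotic fluid 5 days earlier. No genotype or other agent is named for the fetuses. The LPS was injected in sterile saline, while the controls had no injection, so LPS, its vehicle and the injection cannot be told apart. Exposure and gestational age cannot be told apart either, since the LPS fetuses were also the older ones.

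Members were chosen from measured values. A barcode with 500 or more detected genes qualified if it had 0 UMIs of SLC1A3, GAD2, MKI67 and TOP2A, genes of astroglia, inhibitory neurons and dividing cells. It became a member if at least 2 genes of the NELL1 list were detected, and more than of each of 5 other lists of granule neuron genes. Those lists define the COL21A1 type (type A), the EBF3 type (B), the CHRM3 type (C), the TRPC7 type (D) and the RAB37 type (E). In all, 894 of 32587 nuclei (2.74%) were members, or 8.08% of the 11069 nuclei given a type. They numbered 139 in the control female, 400 in the control male, 63 in the LPS female and 292 in the LPS male. Because the rule used these genes in these nuclei, the marker levels below are a description and carry no test.

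Cerebellar granule neurons are the small glutamatergic neurons that fill the internal granular layer and send parallel fibres to Purkinje cells. They are born in the external granular layer, migrate inward past the Purkinje cells and then acquire the ion channels, glutamate receptors and GABA receptors of mature neurons. In the primate, late gestation is a period in which precursors, migrating cells and settled neurons lie side by side. Of the genes that name the group, NELL1 (ENSMMUG00000009055) encodes a secreted protein with epidermal growth factor repeats, CNTNAP5 (ENSMMUG00000019739) a neurexin-like adhesion protein, and ASIC2 (ENSMMUG00000011413) a proton-gated sodium channel. CHRM2 (ENSMMUG00000043456) encodes the M2 muscarinic acetylcholine receptor, which couples to inhibitory G proteins.

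The libraries held 61665690, 34282015, 41642819 and 56935290 UMIs in the control female, control male, LPS female and LPS male, respectively. Depth per nucleus followed sex. Members had a median of 4770 UMIs in the control female and 4068 in the LPS female, against 1940.5 in the control male and 2106 in the LPS male. SLC1A3, an astroglial glutamate transporter whose RNA also lay in barcodes of at most 100 UMIs, was detected in 50.8% and 44.1% of nuclei in the females and in 27.4% and 31.2% in the males. In all, 38.4% of nuclei in the control female and 43.7% in the LPS female passed the condition of 0 UMIs, against 62.9% and 59.5% in the control male and the LPS male. A further 693 nuclei had the NELL1 list pattern and failed only that condition. Between any pair of libraries 16 to 22 barcodes were shared, against 7.93 to 11.7 from the size of the barcode list alone, and 1 member barcode was among them. Genes of the Y chromosome summed to 823 and 710 CPM (summed UMIs scaled to the library's members) in the members of the males and to 10.2 and 7.80 CPM in those of the females, which fits the sex labels.

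In most members, genes of granule neuron identity lay above the level of non-neuronal nuclei. Genes of granule neuron identity, such as RBFOX3, CADPS2, RELN and the ZIC factors, took a median of 0.847% of a member's UMIs in the control female, 1.02% in the control male, 0.748% in the LPS female and 0.928% in the LPS male. In 648 nuclei with at least 3 markers of microglia, fibroblasts or endothelium, here called reference nuclei, the same genes took a median of 0.103% to 0.147%. Members thus resembled the TRPC7 type, at 0.800% to 1.00%, and lay far above the reference nuclei in each library. Members above the 90th percentile of the reference nuclei, a share of 0.430%, are called granule-supported. They made up 83.5%, 91.0%, 90.5% and 84.2% of members in the control female, control male, LPS female and LPS male, 783 of 894 in total. The limit is pooled over libraries. In the LPS male 22.4% of the reference nuclei passed it, against 6.11% to 10.6% in the other libraries, so it separated less sharply there. The reference nuclei were not chosen from other neurons, astroglia or oligodendrocytes, so the limit was not tested against those classes.

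**Figure D1:**
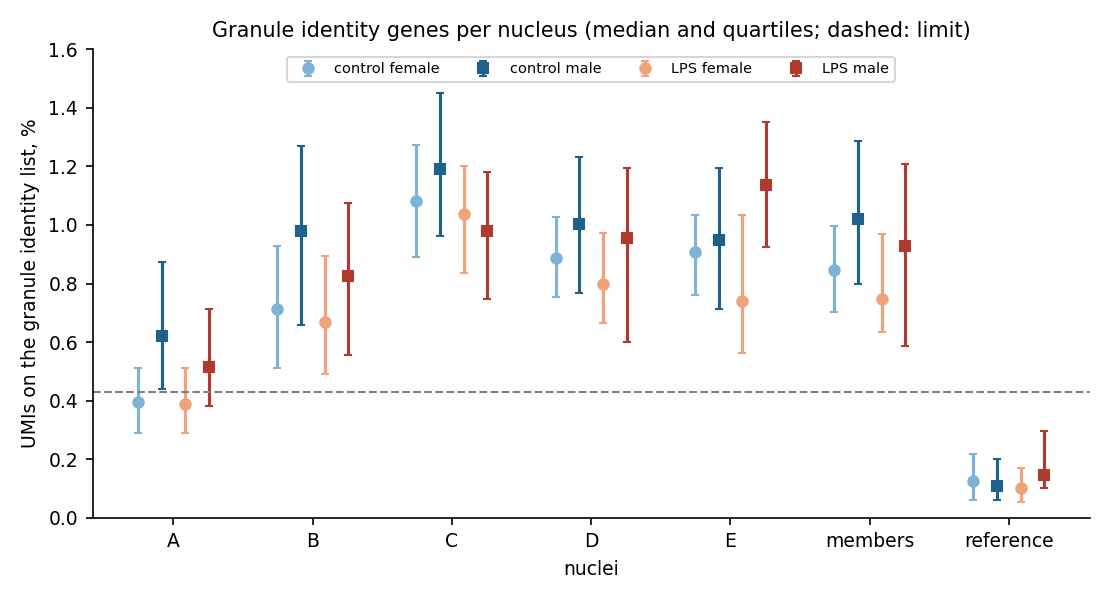
Share of each nucleus's UMIs on the granule identity list (y axis, %), by nuclear type (x axis) and library. Points are medians and bars the quartiles over nuclei, and the dashed line is the 0.430% limit. The members lie at the level of types B to E and above the reference nuclei in all 4 libraries.

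The remaining 111 members differed from the granule-supported ones. They numbered 23, 36, 6 and 46 in the control female, control male, LPS female and LPS male, so the levels of the LPS female rest on 6 nuclei. In the same order of libraries, these members held BCAS1, a gene of the oligodendrocyte lineage, at 1968, 57, 502 and 192 CPM. The granule-supported members had 5.17, 2.63, 4.34 and 15.7 CPM, and types A to E 70.7, 96.3, 122 and 69.1 CPM. In the control male the remaining members thus lay below types A to E. NXPH1, a neurexin ligand, reached 1406, 856, 2932 and 559 CPM in them, against 41.3, 175, 60.7 and 43.5 CPM in the granule-supported members. Of the 8 matched oligodendrocyte markers, 1 to 5 had no UMI in the members of a library, and their sum over all members was 475, 284, 456 and 782 CPM in the control female, control male, LPS female and LPS male. In types A to E the same sum was 506, 423, 657 and 683 CPM. Other sums lay further above types A to E in single libraries. In the LPS female fibroblast markers summed to 93.6 against 22.3 CPM and inhibitory neuron markers to 97.5 against 28.6 CPM. In the LPS male unipolar brush cell markers summed to 81.2 against 22.8 CPM. At least 3 oligodendrocyte markers were detected in 5, 0, 2 and 5 members, respectively, and no member had 3 markers of microglia, cerebellar nuclei, astroglia or the choroid plexus. Only 2 unipolar brush cell markers were matched, and 1 member, of the LPS male, had both. At least 3 Purkinje cell markers were found in 3, 2, 0 and 0 members, and at least 3 markers of inhibitory neurons in 1, 3, 1 and 0. At least 3 fibroblast markers were found in 1, 1, 1 and 0 members, and at least 3 endothelial markers in 2 members of the control male. Values below are of all members, and those of granule-supported members are given for some of them. In the ratios of granule-supported members, only the members were filtered, and types A to E were taken whole.

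A receptor gene that marks mature granule neurons was not at its highest in these nuclei. GABRA6, the GABA-A receptor subunit typical of mature granule neurons, stood at 29.3, 15.3, 19.5 and 46.4 CPM in members of the control female, control male, LPS female and LPS male. In the RAB37 type it stood at 125, 51.6, 89.9 and 113 CPM, above the members in every library. GABRA6 is 1 gene of low level. Of 12 expressed receptor and channel genes of mature granule neurons, 4 were higher than in types A to E in all 4 libraries and 0 were lower. Of all genes, 14.1% were higher and 26.3% lower. These values do not settle how mature the group was, so the term mature is not used for it below. It is called the NELL1 nuclei, a name that stands for the list and not for detection of NELL1. In the LPS male NELL1 was detected in 36.0% of members.

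Among the 5 genes of the rule, ASIC2 and CNTNAP5 marked most of the NELL1 nuclei and CHRM2 the fewest. ASIC2 was detected in 95.7%, 91.8%, 96.8% and 92.8% of members in the control female, control male, LPS female and LPS male, and CNTNAP5 in 89.9%, 71.2%, 90.5% and 77.1%. NELL1 was found in 71.9%, 75.5% and 81.0% of members in the control female, control male and LPS female, but in 36.0% in the LPS male. The 3 libraries other than the LPS male were thus close to each other in detection of NELL1, though at unlike depth per nucleus. C8orf34, an open reading frame gene, was found in 69.1% of members of the control female, 13.2% in the control male, 42.9% in the LPS female and 36.6% in the LPS male. CHRM2 followed sex, with 43.9% and 31.7% in the females and 7.0% and 14.0% in the males. At a median depth of 3464.5 to 4978 UMIs, the reference nuclei had a CHRM2 UMI in 23.1%, 29.3%, 22.2% and 10.3%, so the gene was not confined to granule neurons. In types A to E, at a median of 1728 to 4018.5 UMIs, 2.21%, 0.791%, 1.99% and 1.27% of nuclei had one. Members with a CHRM2 UMI were granule-supported in 93.4%, 95% and 92.7% of cases in the control female, LPS female and LPS male, against 75.6%, 88.4% and 82.9% of members without one. In the control male the order was the other way, with 67.9% of the 28 members with a CHRM2 UMI against 92.7% of the others.

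As summed levels, the genes varied unequally between libraries. ASIC2 stood at 1759, 1495, 1696 and 1767 CPM in the NELL1 nuclei of the control female, control male, LPS female and LPS male. CNTNAP5 was the steadiest of the 5, with 651, 637, 620 and 605 CPM. NELL1 gave 481, 718, 581 and 382 CPM, highest in the control male and lowest in the LPS male. Over granule-supported members it gave 486, 736, 625 and 252 CPM, so the LPS male was lower still. C8orf34 gave 377, 83.6, 238 and 231 CPM. CHRM2 gave 167, 45.9, 172 and 75.4 CPM, so that each female exceeded each male. The sums come from a 3' kit with reads in introns counted, and they are compared here only within a gene. Cell-free RNA, taken from barcodes with at most 100 UMIs, held ASIC2 at 304 to 730 CPM and CHRM2 at 17.1 to 54.0 CPM.

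**Figure D2:**
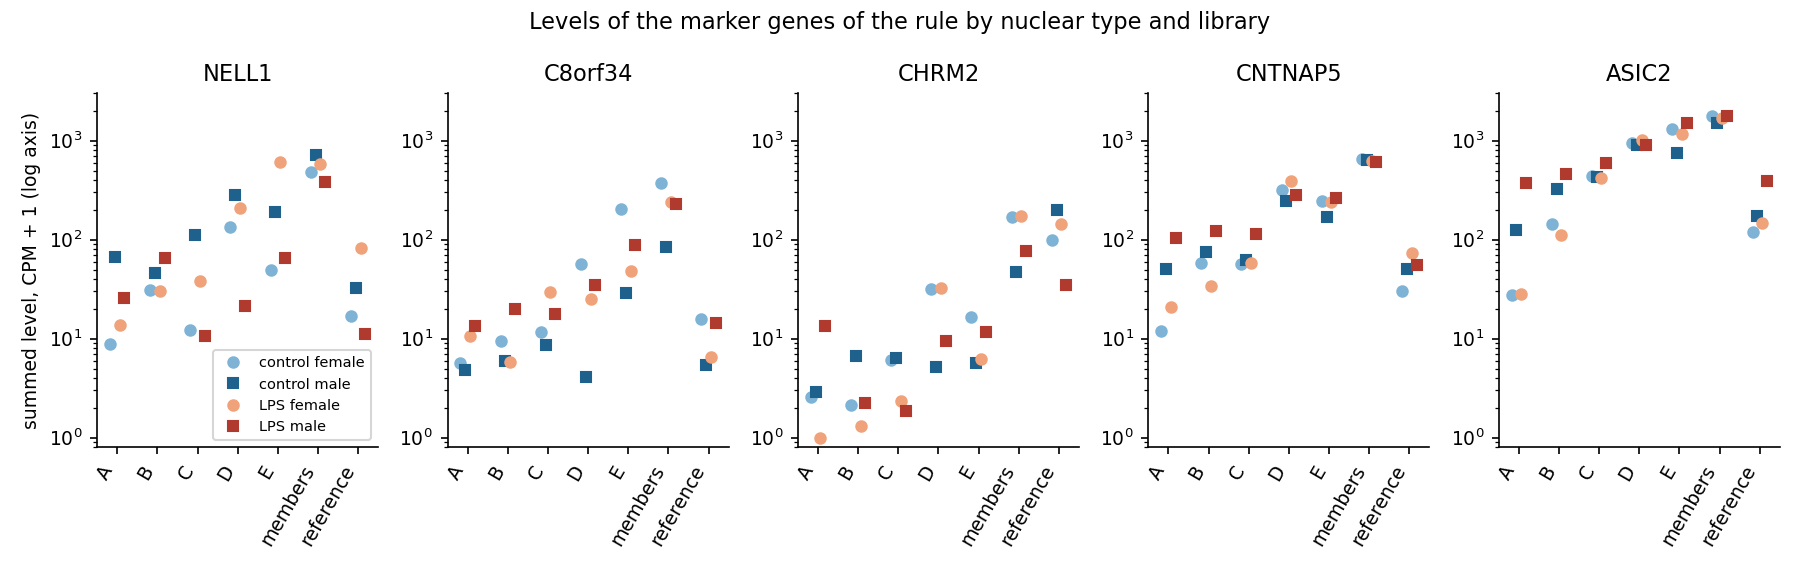
Level of each gene of the NELL1 list (y axis, CPM + 1, log scale) in types A to E, in the members and in the reference nuclei (x axis), with 1 point per library. The members are highest except for NELL1 in the LPS female, where type E stood at 614 against 581 CPM, and CHRM2 in the control male, where the reference nuclei stood at 197 CPM.

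The neighbouring types carried part of the same list. In the TRPC7 type ASIC2 stood at 944, 901, 1006 and 898 CPM, and CNTNAP5 at 318, 243, 394 and 280 CPM. In the RAB37 type ASIC2 reached 1327, 750, 1169 and 1504 CPM. NELL1 in the TRPC7 type was 133, 280, 210 and 20.6 CPM, so it too was lowest in the LPS male. In the EBF3 type ASIC2 was 144, 326, 110 and 457 CPM and CHRM2 was at most 5.66 CPM.

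Most members met the rule by a narrow margin. Exactly 2 list genes were detected in 382 members, 3 in 337, 4 in 135 and all 5 in 40. With 2 genes, 27.8% of 18 members of the control female and 50% of 10 members of the LPS female were granule-supported, against 100% of 54 and 100% of 25 with 4 genes. In the control male and the LPS male, where 196 and 158 members had 2 genes, 87.2% and 79.7% of those were granule-supported. The most frequent combination was all 5 genes in the control female (22.3% of members), NELL1 with CNTNAP5 and ASIC2 in the control male (34.5%) and in the LPS female (28.6%), and CNTNAP5 with ASIC2 in the LPS male (30.5%). Depth rose with the number of genes, from a median of 1579 UMIs with 2 genes to 3076 with 4 in the control male. Just outside the rule lay 1277 nuclei in which the list was tied with another one and 89 in which a single gene of the list was the only lead. The list in second place, where there was 1, was most often that of the TRPC7 type in the control female (51 members), the control male (68) and the LPS female (24), and that of the RAB37 type in the LPS male (44).

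Outside the genes of the rule, the profile of the NELL1 nuclei was closest to that of the TRPC7 type in 3 libraries. Over 5763 genes of at least 30 CPM, Spearman's rho with the TRPC7 type was 0.941 in the control female, 0.960 in the control male and 0.921 in the LPS female. In the LPS male rho was 0.946 with the TRPC7 type and 0.948 with the RAB37 type. The TRPC7 type had 554, 425, 556 and 307 nuclei and the RAB37 type 94, 95, 41 and 934, so the type with more nuclei gave the higher rho in each library, and the part of sampling noise in this order was not tested. With the COL21A1 type rho was lowest, at 0.617 to 0.771. These correlations are across genes, within a library, and both sums share its free RNA.

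Against types A to E together, few genes stood far apart. Of 5763 genes, 5 (0.0868%) were at least 2 times higher (a log2 ratio of 1, with 10 CPM added to both levels) in all 4 libraries, and 7 (0.121%) were at least 2 times lower. The 15 named genes with the highest ratio in their lowest library were SULF2, SHC3, GRM8, PLXNA4, SPATA13, CRTAC1, ANXA3, TAFA2, FRAS1, SLC6A17, NXPH1, FGD3, STK32B, SCN1A and CNTN3. A further 2 genes known by identifier only ranked among them. PLXNA4, a receptor component for semaphorins in axon guidance, gave 189, 154, 101 and 160 CPM in members and 32.0, 49.6, 34.4 and 73.0 CPM in types A to E. CRTAC1, which encodes a secreted matrix protein, gave 89.2, 126, 144 and 71.1 CPM in members and 27.8, 24.9, 25.8 and 32.7 CPM in types A to E. Its log2 ratio was 1.39, 1.96, 2.11 and 0.92 in the control female, control male, LPS female and LPS male. ANXA3, an annexin, gave 118, 80.1, 74.1 and 29.0 CPM against 44.4, 28.9, 26.8 and 11.6 CPM. SCN1A, a voltage-gated sodium channel, gave 96.5, 155, 179 and 129 CPM against 27.2, 64.3, 47.8 and 73.8 CPM.

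Several of these leads came from the members that were not granule-supported. SULF2, a sulfatase that edits heparan sulfate, had log2 ratios of 2.03, 1.47, 1.39 and 1.30 over all members, and of -0.45, 0.88, 0.94 and 0.15 over the granule-supported ones. Its level in the remaining members was 359, 365, 154 and 218 CPM, where the value of the LPS female came from 6 nuclei. GRM8, a metabotropic glutamate receptor, fell in the same way from 1.06 to 1.52 down to -0.19 to 0.46, and reference nuclei held it at 338 to 726 CPM. NXPH1 turned from 0.74 to 2.00 into -0.57 to 0.27. Among granule-supported members 2 genes (0.0347%) were at least 2 times higher in all 4 libraries. These were ANXA3, with log2 ratios of 1.44, 1.27, 1.33 and 1.05, and CRTAC1, with 1.37, 2.06, 2.21 and 1.02. STK32B, a serine/threonine kinase gene, and SPATA13, a guanine nucleotide exchange factor gene, came next, with lowest ratios of 0.93 and 0.87.

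**Figure D3:**
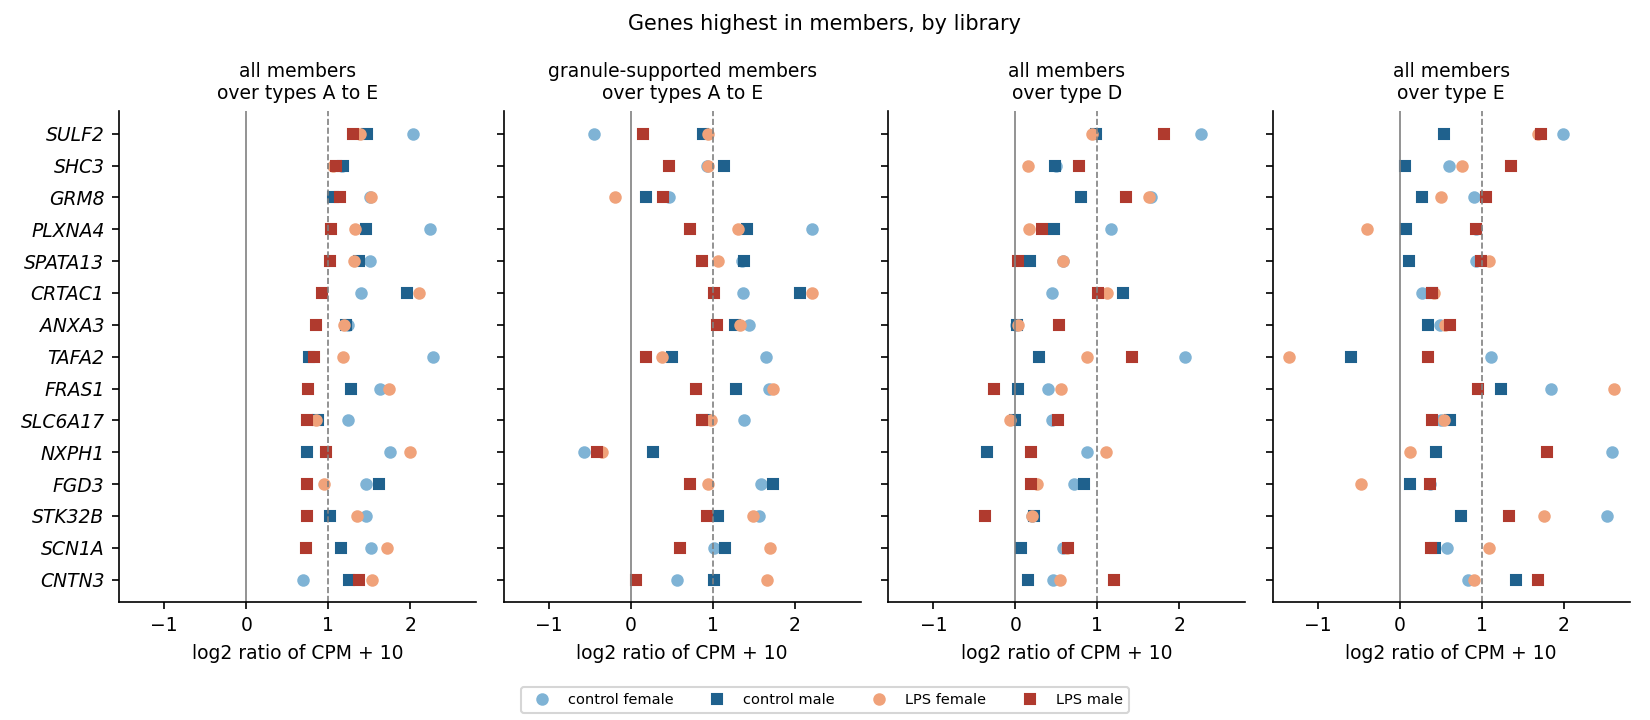
The 15 named genes with the highest ratios (y axis) and their log2 ratio in each library (x axis), for all members and for granule-supported members over types A to E, and for all members over type D and over type E. Dashed lines mark a log2 ratio of 1, which 5 genes pass in all 4 libraries against types A to E and 0 pass in all 4 against types D and E both.

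The NELL1 nuclei were then set beside the TRPC7 and RAB37 types alone. Some leading genes kept high ratios against 1 of them, such as STK32B over the RAB37 type (0.74 to 2.52). GRM8 over the TRPC7 type gave 0.80 to 1.65 for all members and -0.09 to 0.61 for granule-supported ones. Of 5944 genes, none (0%) was at least 2 times higher than in both types in all 4 libraries, for all members and for granule-supported ones alike. Higher by any amount than in both were 77 genes (1.3%), and lower were 64 (1.08%). Among granule-supported members, 59 genes were higher (0.993%) and 105 lower (1.77%), but the TRPC7 and RAB37 types were not filtered in the same way. The lower ones were led by BCAS1, at 5.17, 2.63, 4.34 and 15.7 CPM, against 43.7, 66.5, 54.5 and 77.7 CPM in the TRPC7 type. The part of filtering the members only was not tested. The higher ones were led by CRTAC1, at 87.8, 135, 156 and 76.5 CPM. In the TRPC7 type CRTAC1 stood at 62.8, 44.7, 60.9 and 30.3 CPM, and in the RAB37 type at 72.5, 93.8, 106 and 52.1 CPM. The order of the levels was thus NELL1 nuclei, RAB37 type, TRPC7 type in each library. ANXA3 in the TRPC7 type was 117, 79.0, 72.1 and 17 CPM, within 0.04 on the log2 scale of the members except in the LPS male. Over all members, GALNTL6, a glycosyltransferase gene, led the lower genes, with 390, 106, 253 and 337 CPM in members, 565, 142, 489 and 520 CPM in the TRPC7 type and 998, 225, 471 and 624 CPM in the RAB37 type. Both comparisons were added after the ratios to types A to E had been seen.

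Precursor and migration genes were low in the NELL1 nuclei relative to types A to E together. Of the 11 of this list that were expressed and outside the rule, 7 were lower than in types A to E in all 4 libraries and 0 were higher, against 26.3% and 14.1% of all genes. The median log2 ratio of the list was -1.03, beside -0.09 over all genes. Over granule-supported members 8 were lower and 0 higher, where 28.1% and 13.6% of all genes were. HES6, a transcription factor that promotes neurogenesis, gave 49.7, 41.2, 74.1 and 55.1 CPM in members and 329, 212, 459 and 130 CPM in types A to E. BOC, a Sonic hedgehog co-receptor, gave 52.7, 35.3, 15.6 and 142 CPM against 205, 194, 186 and 157 CPM. UNC5C, a netrin receptor of migrating granule neurons, gave 771, 979, 1470 and 1419 CPM against 3628, 2010, 3464 and 1706 CPM. The other lower genes were GLI2, CNTN2, NHLH2 and DCX, of which CNTN2 encodes an axonal adhesion protein and DCX a microtubule protein of migrating neurons. The TRPC7 type was low as well, with HES6 at 69.0, 37.4, 70.1 and 46.1 CPM.

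Among 10 genes with the lowest ratios, HES6 was joined by TSPAN18, KIAA1217, MDGA1, AFAP1, RIN2, EDA, NCK2, CCDC88C and ARHGAP8. TSPAN18, a tetraspanin, gave 29.3, 74.2, 7.80 and 53.7 CPM in members against 195, 428, 198 and 168 CPM in types A to E. MDGA1, which encodes a membrane-anchored protein that limits neuroligin binding, gave 39.5, 77.7, 11.7 and 82.7 CPM against 227, 323, 176 and 203 CPM. In both genes the LPS female was the lowest of the members, but these levels rest on 3 UMIs or fewer (11.7 CPM). Against the TRPC7 type the log2 ratio of TSPAN18 was 0.47, 0.83, -0.57 and 0.70, so its low level was shared with that type.

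Some genes of receptors and channels of mature granule neurons were higher in the NELL1 nuclei. Of 12 expressed outside the rule, 4 were higher than in types A to E in all 4 libraries and 0 were lower, with a median log2 ratio of 0.24, beside 14.1% and 26.3% of all genes and their median of -0.09. Over granule-supported members 6 were higher and 1 lower, beside 13.6% and 28.1% of all genes. SCN2A, a sodium channel of axons, gave 522, 459, 413 and 711 CPM in members and 141, 109, 104 and 621 CPM in types A to E. KCNC1, a potassium channel for fast firing, gave 155, 133, 109 and 216 CPM against 77.9, 68.6, 55.7 and 190 CPM. KCND2, which carries the A-type potassium current, was also among them, but its level in the TRPC7 type (6956, 2940, 7236 and 3059 CPM) was above that in members (6053, 2440, 5770 and 2710 CPM) in all 4 libraries. SCN2A in the TRPC7 type was below the members, at 287, 223, 246 and 453 CPM. Its level in the RAB37 type is not given here, so SCN2A is not shown to set the members above both types. The ratio was lowest in the LPS male for SCN2A, KCNC1 and KCND2. In the LPS male the RAB37 type made up 38.4% of types A to E, against 1.85% to 3.78% in the other libraries. The part of this makeup in those ratios was not tested.

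Few other cholinergic genes were expressed. Of 19 cholinergic genes, CHRM2 and CHRM3 were used by the rule, and only CHRNA7 and BCHE among the others were expressed. CHRNA7, the alpha 7 nicotinic receptor subunit, gave 263, 14.1, 382 and 10.2 CPM in members and 290, 28.7, 394 and 17.7 CPM in types A to E. It was thus high in the females and low in the males, and the free RNA held 1592, 27.6, 2492 and 27.5 CPM. Choline acetyltransferase (CHAT) and the vesicular acetylcholine transporter (SLC18A3) had no UMI in the members of any library, which allows up to 3.53 to 11.7 CPM (3 UMIs). Of 11 expressed genes of inhibitory G protein signalling, 3 were higher in all 4 libraries (RGS6, ADCY1 and ADCY8) and 3 were lower (KCNJ3, KCNJ6 and RGS7), beside 14.1% and 26.3% of all genes. Over granule-supported members only ADCY1 of the 11 was higher in all 4 libraries, while ADCY2, GNAI3, KCNJ6 and RGS7 were lower. The shares of all genes were 13.6% and 28.1% there, with types A to E not filtered by the same limit. KCNJ6, a subunit of the potassium channels that such receptors open, gave 990, 1067, 819 and 1252 CPM in members and 1923, 1804, 1582 and 1876 CPM in types A to E. ADCY1, an adenylyl cyclase, gave 250, 416, 195 and 469 CPM against 130, 237, 122 and 418 CPM, and the TRPC7 type lay at the members' level, with 241, 429, 203 and 436 CPM. RGS6, a regulator that shortens G protein signals, went from 175 CPM in all members of the control male to 48.6 CPM in granule-supported ones, below the 56.6 CPM of types A to E, and the other members held it at 1278 CPM.

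Synapse organisers included both higher and lower genes. Of 20 expressed genes, 11 were higher than in types A to E in all 4 libraries and 3 were lower, with a median log2 ratio of 0.21, beside 14.1% and 26.3% of all genes and their median of -0.09. Over granule-supported members 9 were higher and 3 lower, beside 13.6% and 28.1% of all genes. TENM2, a teneurin, gave 3719, 2863, 3813 and 1394 CPM in members and 1815, 1295, 1677 and 1063 CPM in types A to E. LRRTM4, a leucine-rich repeat protein of postsynaptic sites, gave 2084, 671, 2359 and 940 CPM against 634, 301, 593 and 610 CPM. The TRPC7 type again lay close, with TENM2 at 4120, 2867, 3890 and 1749 CPM. Of 4 expressed relatives of the marker genes, 1 was higher in all 4 libraries. NELL2, the paralogue of NELL1, gave 1306, 649, 1201 and 889 CPM in members and 1346, 634, 1184 and 862 CPM in types A to E, and ASIC1, the paralogue of ASIC2, gave 30.7 to 62.4 CPM. CNTNAP2, the higher one and a relative of CNTNAP5, gave 1834, 2085, 4246 and 981 CPM against 1288, 1039, 2757 and 646 CPM, and the TRPC7 type had 2195, 1882, 5198 and 900 CPM, above the members in both females. Of 12 expressed granule identity genes 5 were higher and 4 lower, with a median of 0.11. Of 2 expressed innate immune genes 1 was higher, and the only expressed immediate early or stress gene was neither. Of 8 genes outside the rule that had been picked for a high level after LPS in earlier results of these libraries, 5 were higher, with a median of 0.93.

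The first question on exposure was whether LPS changed the number of NELL1 nuclei. They made up 1.5% of nuclei in the control female (exact binomial 95% interval, 1.26% to 1.77%) and 4.64% in the control male (4.21% to 5.11%). In the LPS female they made up 0.912% (0.702% to 1.17%) and in the LPS male 3.74% (3.33% to 4.19%). The share was lower after LPS within each sex, and the controls and LPS libraries overlapped. The log2 ratio of LPS to control was -0.40 (SE 1.48, n = 2 fetuses per group), with an adjusted p of 0.985 by edgeR's quasi-likelihood test over 7 classes of nuclei. The difference between sexes was larger than that between exposures, and depth and the share passing the condition of 0 UMIs moved with it. After thinning to 1000 UMIs the shares were 3.71%, 5.66%, 3.23% and 5.83% in the control female, control male, LPS female and LPS male, so that LPS was lower in the females and higher in the males. Only 429 of the 1342 members called after thinning were members at full depth, while 397 failed the condition of 0 UMIs there and 204 had another type. Without the control male the log2 ratio was 0.63, and without the LPS female it was 0.29. Without the LPS male it was -1.75, so the direction rested on single libraries. A two-sided exact permutation test of 2 against 2 cannot go below 0.333.

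**Figure D4:**
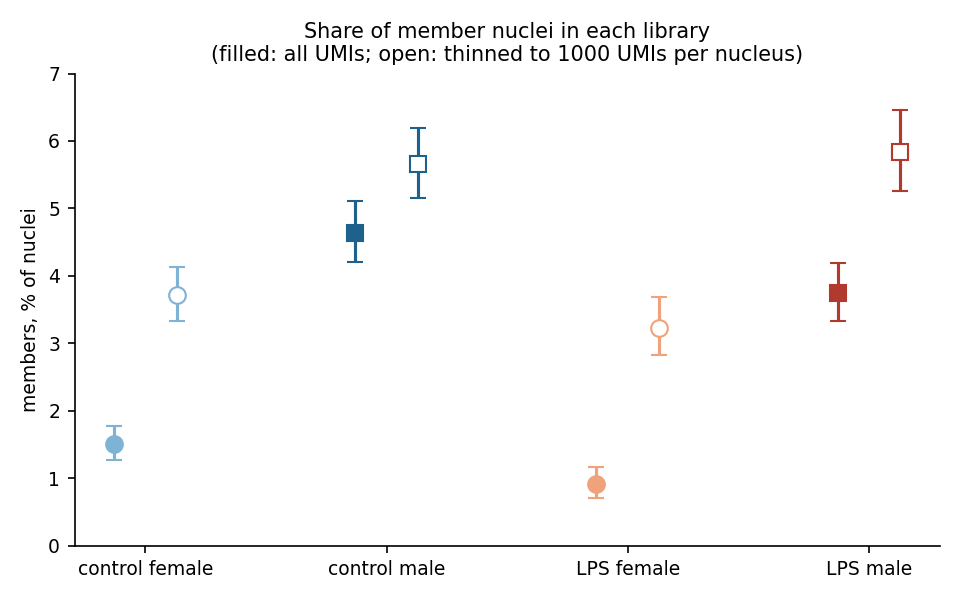
Members as a share of the nuclei with 500 or more genes (y axis, %) in each library (x axis), with all UMIs (filled) and after thinning each nucleus to 1000 UMIs (open). Bars are exact binomial 95% intervals, which cover counting error only. The males lie above the females in both exposures.

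The second question was which genes differed between LPS and control within the NELL1 nuclei. UMIs were summed over the members of each library and 8001 genes were tested. By edgeR's quasi-likelihood test with Benjamini-Hochberg adjustment 0 genes (0%) passed an adjusted p of 0.1, while an unadjusted p of 0.05 was passed by 40. The count from DESeq2 was likewise 0, with 20 genes at that unadjusted p. Both LPS libraries lay above both controls for 800 genes (10%) and below both for 820 (10.2%). With only 2 libraries per group, such separations also arise without any effect. Fold changes centred on -0.01 (log2), with a median standard error of 0.53.

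Named by the smallest p among genes whose groups did not overlap, 5 genes were higher and 5 lower, and each had an adjusted p of 1.00 by edgeR. COL25A1, a brain-expressed transmembrane collagen, stood at 108 and 68.1 TMM-normalised CPM in the controls (female, then male) and at 247 and 271 in the LPS female and LPS male. Its log2 fold change was 1.57 (SE 0.38), and types A to E had 163, 102, 292 and 249 CPM in the same order of libraries. TMTC1, a mannosyltransferase gene, gave 11.4, 18.2, 132 and 40.7 TMM-normalised CPM, a log2 fold change of 2.44 (SE 0.69) that was 1.43 without the LPS female and 3.11 without the LPS male. KIF13B, a kinesin, rested on 4, 4, 8 and 24 UMIs. TRMT9B, a tRNA methyltransferase-like gene, and SLC25A13, a mitochondrial aspartate-glutamate carrier, had log2 fold changes of 1.47 (SE 0.44) and 1.41 (SE 0.44).

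TSHZ2, a zinc finger transcription factor, had the smallest p of the 5 named lower genes. It stood at 88.1 and 104 TMM-normalised CPM in the control female and control male and at 34.1 and 9.81 in the LPS female and LPS male, a log2 fold change of -2.33 (SE 0.63), which was -1.51 without the LPS male and -3.28 without the LPS female. In types A to E it had 26.1, 36.9, 23.1 and 9.35 CPM. RIMBP2, a presynaptic scaffold, gave 71.8, 111, 38.4 and 30.8 TMM-normalised CPM. PIK3C2G, a lipid kinase gene, rested on 34, 25, 3 and 7 UMIs. PLCH1, a phospholipase, and BRAP, a ligase gene, had log2 fold changes of -1.51 (SE 0.55) and -1.26 (SE 0.47), and without the control female that of PLCH1 was -0.82. Within granule-supported members TMTC1 fell to 8.70 CPM in the LPS male, below the 14.4 CPM of the control male, and PIK3C2G to 12.1 CPM in the control female, below the 13 CPM of the LPS female, so these pairs of groups then overlapped. COL25A1 and TSHZ2 kept log2 fold changes of 1.5 and -2.44 there, with an adjusted p of 1.00.

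**Figure D5:**
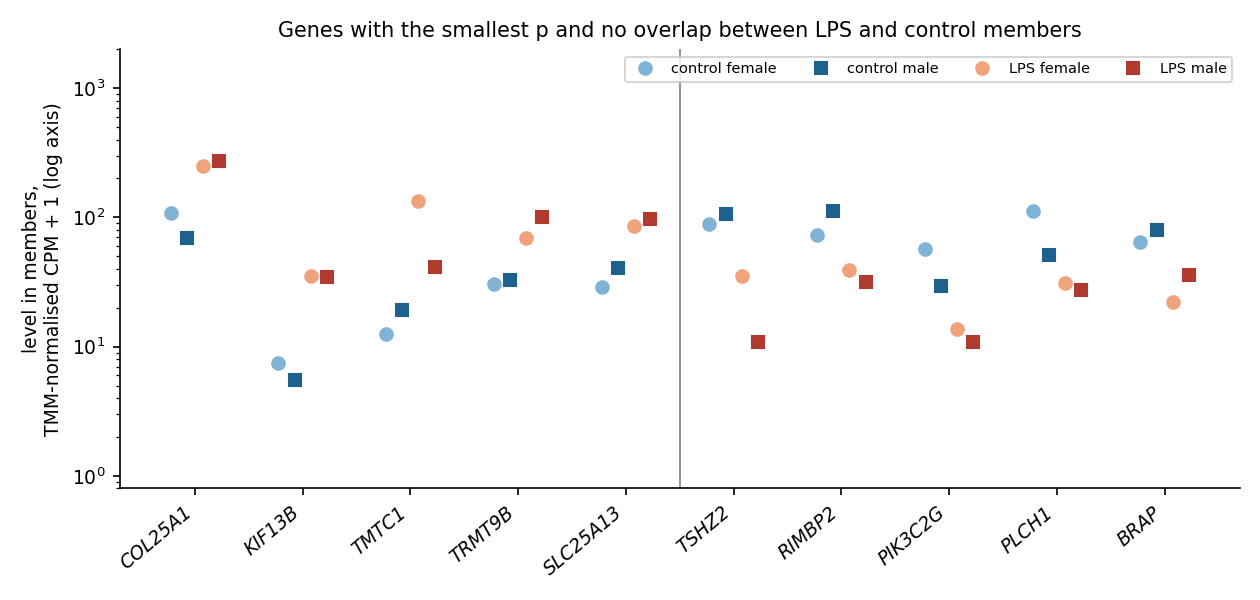
Level in the NELL1 nuclei of each library (y axis, TMM-normalised CPM + 1, log scale) of the 10 genes named for LPS against control (x axis), higher ones to the left of the line. LPS and control points do not overlap because the genes were chosen that way, and none passed the test.

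The lists showed no called gene either, and 10% and 10.2% of all genes lay above and below both controls. Of 13 tested receptor and channel genes of mature granule neurons outside the rule, 3 lay above both controls, SLC17A7 and GRIA2 among them, and 0 below, with a median log2 fold change of 0.21. Of 12 tested granule identity genes 1 lay above (CBLN1), of 11 precursor genes 2 lay above (UNC5C and DCC), and of 21 synapse organisers 2 lay above (CBLN1 and NRXN2). Of 12 inhibitory G protein genes 2 lay above and 3 below, and of 3 cholinergic genes outside the rule 0 lay above and 1 below (ACHE). Of 5 relatives of the marker genes outside the rule 1 lay above (ASIC1). Innate immune genes were scarce in these nuclei, with 5 of 30 tested, 0 apart from the controls and a median of -0.13, and TLR4, the LPS receptor, had at most 1.45 CPM. HSPH1, a heat shock protein gene, was the only one of 3 tested stress and immediate early genes above both controls. Of the genes picked for a high level after LPS in earlier results of these libraries, 8 lay outside the rule, and all 8 overlapped, with a median of 0.49. They were chosen on these samples, so they are not independent evidence of a direction.

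OPCML, a neuronal cell adhesion gene, was one of those. It stood at 633 and 132 TMM-normalised CPM in the control female and control male and at 435 and 770 in the LPS female and LPS male, a log2 fold change of 0.67 (SE 0.70) that was 2.22 without the control female and -0.07 without the control male. In granule-supported members the levels were 70.6, 56.4, 47.7 and 696 CPM, so that the LPS male alone was high, and in types A to E they were 113, 218, 150 and 603 CPM. RUNX1T1, a transcriptional corepressor, gave 272, 144, 418 and 213 TMM-normalised CPM, a log2 fold change of 0.58 (SE 0.48). It was 0.027 without the LPS female and 1.13 without the control female. Each LPS library lay above the control of its sex, and the groups overlapped. In types A to E RUNX1T1 stood at 107, 97.5, 280 and 254 CPM in the same order of libraries, with no overlap of the groups.

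Whether an LPS effect differed between the NELL1 nuclei and types A to E was tested as an interaction. Of 12768 genes, 0 (0%) passed an adjusted p of 0.1 by edgeR with the library as a block, while 551 passed an unadjusted p of 0.05. The counts from DESeq2 were 0 and 105. Against the TRPC7 type alone, 0 of 9220 genes passed, with 303 at that unadjusted p. With granule-supported nuclei only, here in types A to E as well, 41 genes passed against types A to E. Of these, 11 had a higher and 30 a lower effect in the NELL1 nuclei. Among them were RAB37 and PTK2B, which the rule used to define the RAB37 type. That type took 38.4% of types A to E in the LPS male and at most 3.78% elsewhere, and its part in these 41 genes was not tested. Leaving out the LPS female gave 371 genes, leaving out the control male 33, and leaving out the LPS male 0.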

How the data were processed

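Nuclei of frozen cerebellar hemispheres and part of the vermis were captured with 10x Genomics 3' v3.1 kits. The authors mapped the reads to the rhesus genome Mmul_8.0.1 with introns included. The protocol names Cell Ranger 5.0, while the deposited matrices name Cell Ranger 4. The deposited values are UMI counts per gene and barcode, unfiltered and not normalized. No subtraction of free RNA was applied here. The members and gene lists were chosen with earlier results of these data known.

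Barcodes with 500 or more genes were kept, without a mitochondrial limit. Groups follow the treatment labels, and the libraries are named by sex. Levels are CPM of summed UMIs. UMIs of members were summed per library and tested in edgeR 4.0.16 (R 4.3.3), with filterByExpr, TMM and the quasi-likelihood test. Genes were called at an adjusted p (Benjamini-Hochberg) below 0.1 with a log2 fold change beyond 0.25 in either direction, and shares at 0.05. DESeq2 1.42.0 was an alternative. The scripts were tested on simulated data. Since the fetus is the replicate, 2 fetuses per group limit the precision, and a UMI total of 256485 to 849437 in members limits low genes. Intervals cover counting error only.

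No doublet caller was run. Nuclei with 2 or more markers of another class, or among the 5% with the most UMIs, were left out as alternatives. Named genes for LPS were the 5 per direction with the smallest p among those with no overlap between groups, since none was called, and 1 gene known by identifier only was passed over. Named genes against types A to E were the 15 with the highest lowest ratio and the 10 with the lowest highest ratio. Of 257 list genes 11 had no row under their symbol or identifier. An NCBI name table named 882 of 9483 rows without a symbol. Its assembly differs from that of the files, so no coordinates or sequences are given. Results for a few genes are not reported here.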

Additional observations from a re-analysis of the deposited data

Results flagged for a closer look

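Of 25 genes examined for LPS against control (the 10 named by the test, the 5 of the NELL1 list and 10 picked from earlier results), 10 had log2 ratios of opposite sign in females and males, with 1 library per sex and exposure. Over all 8001 tested genes the signs were opposite for 4118 (51.5%), genes named for other comparisons among them, such as BOC at -1.35 and 1.74. The 10 named by the test could not be among the genes of opposite sign, since they were chosen for groups that do not overlap. The difference between the sexes was not tested, and log2 ratios of LPS to control are of TMM-normalised CPM with 10 added. OPCML gave -0.532 in females and 2.46 in males, LRRC3B -1.5 and 2.49, and RAB37 -1.12 and 2.41. CAMK4 gave -0.494 in females and 1.41 in males, ZNF385D -0.181 and 1.57, RBFOX1 -0.366 and 1.02, and SCN2A -0.360 and 0.622. Among the genes of the rule, C8orf34 gave -0.675 in females and 1.36 in males, NELL1 0.238 and -0.892, and ASIC2 -0.0821 and 0.242. The 7 genes outside the NELL1 list had been picked from earlier results of these libraries, and levels of the genes of the rule are partly fixed by the choice of members. RAB37 defines the RAB37 type, which held 934 nuclei in the LPS male and 41 in the LPS female.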

How the results depend on the processing

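The share of NELL1 nuclei failed the test under every alternative run. The log2 ratio kept its sign in 14 settings, from -0.60 with 1000 or more genes to -0.044 after thinning as a share of typed nuclei, and leaving out 1 library gave -1.75 to 0.63. Genes called in the members numbered 4 without the filter on low counts (TTR, MOBP, MBP and TAFA1) and 0 to 58 with 1 library left out, where the lone sample of a group is assumed to vary like the other group. The 58 came without the control female, and 12 each came without the control male and without the LPS female. Interaction genes numbered 36 without the filter, 41 with granule-supported nuclei, 1 after thinning (THSD4) and 0 to 371 with 1 library left out. The causes were not tested. Granule-supported nuclei, the rule without 0 UMIs and the comparison with the TRPC7 type were chosen after seeing the data.

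The GEO labels carry sex but no replicate number, and the study numbers its samples by sex within a group. With sex as a replicate block the share gave -0.51 (SE 1.06), and 0 genes passed, with 220 under an unadjusted p of 0.05. The female-minus-male differences of the control and LPS pairs correlated across 8001 genes (r = 0.506). Of 150 values of the 12 genes named for LPS, 147 kept direction and call. All but OPCML and RUNX1T1 were chosen for groups that do not overlap, and none was called in the main test. Much of that count was therefore fixed by the choice of genes. TSHZ2 passed without the LPS female (-3.28) and OPCML without the control female (2.22), while OPCML turned to -0.065 without the control male.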
